A study of Mus musculus with 9 samples.

Results

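The genes described here handle iron in microglia, brain-resident macrophages: they store it, carry it in and out of the cell, release it from heme and sense how much of it is free. The list was set by gene name. A gene entered where the array's annotation gave a probe set to it alone, and the probe set with the highest mean stood for it. Of 9 listed genes 8 had such a probe set, 1 each, among 19938 genes in all: Fth1, Ftl1, Tfrc, Slc11a2, Slc40a1, Hmox1, Ireb2 and Aco1. Slc11a1 had none in the annotation used here and is not described. All 8 lay above the median of all probe sets, the limit set for testing, and so were among 10795 genes tested.

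Expression was measured on 9 arrays, 1 per mouse, in cells sorted as CD45+ CD11b+ from brains of mice aged 8.5 months. Every mouse carried 5XFAD, a set of human disease transgenes under which amyloid plaques form, and was deficient in its own TREM2, a surface receptor that microglia use to sense lipids. The groups differed in the human TREM2 they expressed: 3 mice had none (KO), 3 had R47H, a variant known as a risk factor for Alzheimer's disease, and 3 had the common variant (CV). Mouse 1 of each genotype was female, and mice 2 and 3 were male. No group with mouse TREM2 or without 5XFAD is analysed here, so each comparison is between forms of human TREM2 in a diseased brain. The promoter of the human gene and the number of founder lines are not given in the labels.

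A cell takes up transferrin-bound iron through the transferrin receptor, moves it across the endosomal membrane, stores what it does not need inside ferritin and exports the rest through ferroportin, the only known exporter of iron from animal cells. Iron regulatory proteins bind hairpins in the transcripts of these genes when iron is scarce: ferritin and ferroportin are then translated less, and the transferrin receptor transcript is kept from decay. Ferritin protein can therefore change with no change of its transcript, which is what an array sees. Microglia near amyloid plaques are known to hold iron and ferritin.

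Of these genes Slc40a1, which encodes ferroportin, differed among genotypes. It was lower with the common variant of human TREM2 than in the KO and R47H groups. In KO mice 1, 2 and 3 its probe set (10354374) read 7.83, 8.01 and 8.02 on the log2 scale. In R47H mice 1, 2 and 3 it read 7.83, 8.01 and 8.10. In CV mice 1, 2 and 3 it read 7.37, 7.55 and 7.51. Every CV mouse lay below every mouse of the KO and R47H groups, and those groups overlapped. The means were 7.95 ± 0.10 in KO, 7.98 ± 0.13 in R47H and 7.48 ± 0.09 in CV (SD, n = 3). The gene, at chromosome 1 from 45908070 to 45926532 (GRCm38.p6, as are the positions that follow), is the exit route for iron that macrophages recover.

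CV minus KO was -0.48 ± 0.06 (SE), a level 1.39-fold lower (95% confidence interval of the difference -0.62 to -0.33, limma adjusted p = 0.00848). R47H minus CV was 0.50 ± 0.06, or 1.41-fold higher in R47H (interval 0.36 to 0.64, limma adjusted p = 0.0134). R47H minus KO was 0.03 ± 0.06 (interval -0.12 to 0.17, limma adjusted p = 0.983). Adjusted p-values here and below are Benjamini-Hochberg values over all 10795 genes, from a limma model with a term for sex, and a gene is called at an adjusted p under 0.05. Slc40a1 was the only 1 of the 8 genes called in CV minus KO, where 1.21% of all tested genes were called (0.259% as lower), and the only 1 called in R47H minus CV, where 0.797% were (0.38% as higher in R47H). At an unadjusted p under 0.05 it was again the 1 member in both, against 13.2% and 12.4% of all genes. In R47H minus KO 0 members were called by limma, where 0.0834% of all genes were, and 0 had an unadjusted p under 0.05, against 5.68%. In the F-test of any genotype difference Slc40a1 had an adjusted p of 0.0104 (limma), and 1.32% of genes passed (12% at an unadjusted p under 0.05). An exact permutation test of any difference among genotypes, over all arrangements of the 9 values, gave p = 0.0357 for Slc40a1 (smallest possible 0.00357). That p-value was not adjusted for the number of genes, and the test takes no account of sex. With 3 mice against 3 such a test cannot go below 0.10, so comparisons of 2 groups rest on the model.

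**Figure D1:**
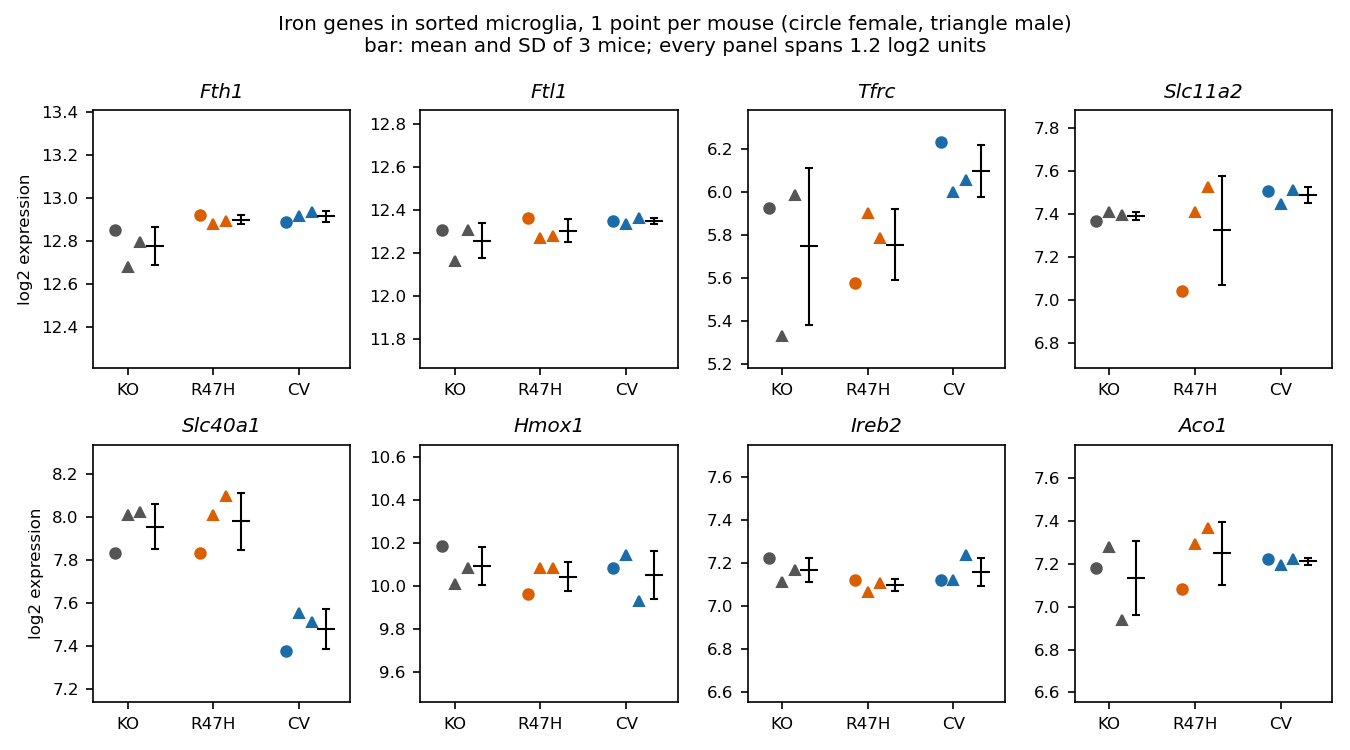
Log2 expression of the 8 iron genes in each mouse, by genotype; circles are females, triangles males, and the bar beside each group is the mean and SD of 3 mice. In the Slc40a1 panel the CV mice (7.37 to 7.55) lie below all others (7.83 to 8.10), while in the other panels the groups overlap or lie close.

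The Slc40a1 difference was of like size in both sexes: CV minus KO was -0.46 between the females (1 per group) and -0.48 between the males (2 per group). The female also read lower than the mean of the males in each genotype, by differences of -0.18 in KO, -0.22 in R47H and -0.16 in CV. Female minus male for Slc40a1 was -0.19 ± 0.05 (limma unadjusted p = 0.00799, adjusted p = 0.293). An unadjusted p under 0.05 was reached by 11% of all genes. The female was mouse 1 in every genotype, so sex and mouse number cannot be told apart here. Between the sexes 0 members were called by limma, where 0.0648% of all genes were, and Slc40a1 was the 1 member with an unadjusted p under 0.05.

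The sort can hold other CD11b+ cells, and in a bulk sample fewer cells of a type and less RNA per cell cannot be told apart. Markers of microglia stood high on every array: the mean of 9 markers, Cx3cr1 and P2ry12 among them, lay at 11.3 to 11.4 in KO, 11.2 to 11.3 in R47H and 11.1 to 11.2 in CV, and all 9 were lower in CV than in KO with 0 called (median difference -0.16). Markers of border-associated macrophages, 8 of 8 measured, had means of 7.48 to 7.67 in KO, 7.68 to 7.78 in R47H and 7.40 to 7.53 in CV. Of these 7 lay lower in CV than in KO, none called, and 1, Ms4a7, was called higher. Neutrophil markers had means, over all 12 with a probe set (8 were tested), of 5.80 to 8.68 in KO, 6.35 to 7.13 in R47H and 7.99 to 8.72 in CV. Oligodendrocyte markers had means, over all 8 with a probe set, of 5.76 to 6.50 in KO, 6.86 to 7.25 in R47H and 5.77 to 6.09 in CV, and 5 of the 7 tested were called higher in R47H than in CV. The mean of the astrocyte markers was likewise highest in R47H. Over all 8 with a probe set it was 5.29 to 5.77 in KO, 6.0 to 6.34 in R47H and 5.25 to 5.45 in CV. Of 4 tested 1, S100b, was called higher in R47H than in CV (2.12, limma adjusted p = 0.0127). Not all of them followed the mean: Slc1a3 had means of 8.07 in KO, 7.96 in R47H and 7.82 in CV. Monocyte markers, 5 with a probe set, had means of 4.70 to 5.87 in KO, 4.84 to 5.14 in R47H and 5.51 to 6.05 in CV, with 0 of 3 tested called. Endothelial markers, 7 with a probe set, had means of 4.78 to 4.91 in KO, 4.81 to 4.96 in R47H and 4.97 to 5.01 in CV. Of 3 tested 1, Flt1, was called higher in CV than in KO (1.55, limma adjusted p = 0.00413). The others tested, Pecam1 and Vwf, stood at -0.56 and 0.03 (limma adjusted p = 0.17 and 0.914). The endothelial score rests on these 3 genes, which did not move together. Over the 9 arrays the level of Slc40a1 had a Pearson correlation of 0.878 with the score of the microglia markers, -0.818 with that of the endothelial markers and 0.75 with that of the border-associated macrophage markers, as a description. Of 8 neuron markers 0 reached the level for testing.

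With a marker score of these cells as a covariate, the CV minus KO difference of Slc40a1 was -0.48 ± 0.10 for border-associated macrophages (limma adjusted p = 0.175), -0.49 ± 0.09 for neutrophils (adjusted p = 0.126), -0.47 ± 0.08 for oligodendrocytes (adjusted p = 0.0532), -0.45 ± 0.09 for astrocytes (adjusted p = 0.166), -0.49 ± 0.09 for monocytes (adjusted p = 0.103) and -0.49 ± 0.19 for microglia (adjusted p = 0.38). In each of these 6 fits the SE was larger than in the reported model and the call was lost. The endothelial score was not used as a covariate. For R47H minus CV it was 0.51 ± 0.13 with the border-associated macrophage score, 0.52 ± 0.09 with the neutrophil score, 0.47 ± 0.20 with the oligodendrocyte score, 0.42 ± 0.20 with the astrocyte score, 0.52 ± 0.11 with the monocyte score and 0.51 ± 0.14 with the microglia score, with no call (limma adjusted p = 1, 0.222, 1, 0.999, 0.427 and 0.242). The call in CV minus KO was kept when any 1 mouse was left out (differences -0.49 to -0.46, adjusted p from 0.0182 to 0.0499). It was lost in a fit of the compared groups alone (adjusted p = 0.0517). In the model without sex the calls in CV minus KO (adjusted p = 0.0598), in R47H minus CV (adjusted p = 0.0531) and in the F-test (adjusted p = 0.0537) were all lost. The call in R47H minus CV was lost without R47H mouse 1 (0.52, adjusted p = 0.0837), R47H mouse 3 (0.47, adjusted p = 0.0666), or CV mouse 1, 2 or 3 (0.51, 0.51 and 0.48, adjusted p = 0.0847, 0.056 and 0.0819). With 1 mouse left out the adjusted p of the limma F-test ran from 0.018 to 0.0692, and its call was lost without any 1 of the CV mice.

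**Figure D2:**
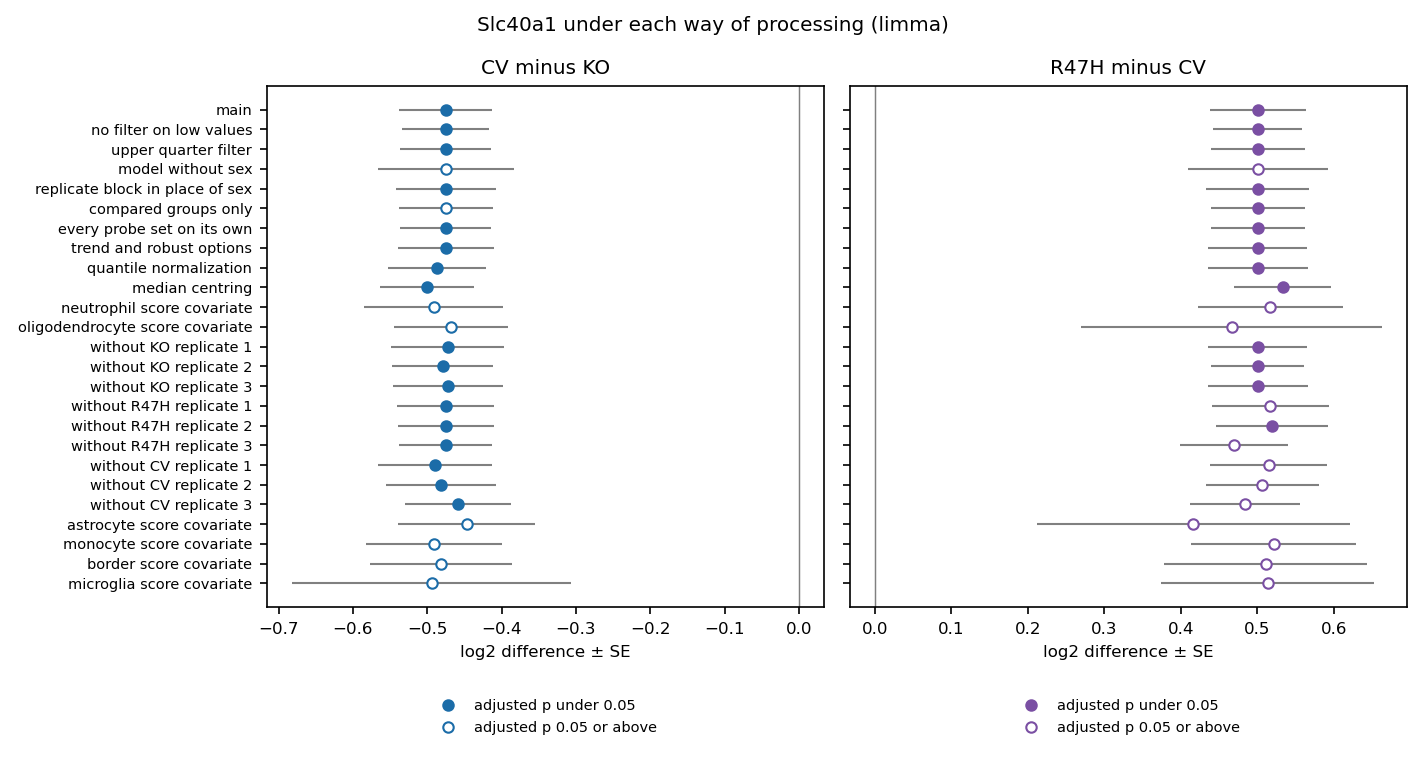
Slc40a1 log2 difference (x axis, bars are the SE) under the reported model, called main, and each alternative, for CV minus KO and R47H minus CV; filled points have a limma adjusted p under 0.05. Differences ran from -0.50 to -0.45 in the first panel and from 0.42 to 0.53 in the second.

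Ferritin is a shell of heavy and light subunits. Fth1 encodes the heavy subunit, a ferroxidase that oxidises iron as it enters, and lies on chromosome 19 from 9980600 to 9985111. Its probe set (10461402) read 12.85, 12.68 and 12.79 in KO mice 1, 2 and 3. It read 12.92, 12.88 and 12.89 in the R47H mice and 12.89, 12.92 and 12.94 in the CV mice. All KO mice lay below all others, KO mouse 2 lowest, and the R47H and CV mice overlapped. CV minus KO was 0.14 ± 0.07 (interval -0.02 to 0.29, limma adjusted p = 0.434), and R47H minus KO was 0.12 ± 0.07 (interval -0.03 to 0.28, adjusted p = 0.907). R47H minus CV was -0.02 ± 0.07 (interval -0.17 to 0.14), and turned to 0.02 with median centring and 0.03 with quantile normalization. Fth1 was not called, and the exact permutation test over its 9 values gave p = 0.0179. Those comparisons with KO share the KO mice.

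Ftl1, the light subunit, which favours the growth of the mineral core, lies on chromosome 7 from 45457944 to 45459886. Its probe set (10447591) read 12.30, 12.16 and 12.30 in KO, 12.36, 12.27 and 12.28 in R47H, and 12.35, 12.33 and 12.36 in CV. The CV mice lay above the KO mice and the R47H mice overlapped both. The differences were 0.09 ± 0.07 for CV minus KO (interval -0.06 to 0.24, limma adjusted p = 0.624), 0.05 ± 0.07 for R47H minus KO and -0.04 ± 0.07 for R47H minus CV, with no call. Another 4 probe sets list Ftl1 together with microRNA genes and were left out by the rule. On them CV minus KO ran from 0.05 to 0.14 and R47H minus KO from 0.03 to 0.05. Ferritin light chain has near-identical copies in the mouse genome, so its probe sets may see more than 1 of them.

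Both ferritin genes stand near the top of the arrays, with means above those of 99.9% and 99.6% of tested genes. Over the 9 arrays the levels of Fth1 and Ftl1 had a Pearson correlation of 0.861, a description of arrays that share their processing. KO mouse 2 was the lowest of the 9 for both genes. Without that mouse CV minus KO was 0.09 for Fth1 and 0.05 for Ftl1. The stretches before the gene starts of this pair are shown because their levels ran together over the mice. They are the 250 bases before a RefSeq start, read in the direction of the gene, for Fth1 from chr19:9982396-9982645 on the plus strand and for Ftl1 from chr7:45459887-45460136 on the minus strand. Capitals mark CCAAT and GGGCGG on either strand.
Fth1: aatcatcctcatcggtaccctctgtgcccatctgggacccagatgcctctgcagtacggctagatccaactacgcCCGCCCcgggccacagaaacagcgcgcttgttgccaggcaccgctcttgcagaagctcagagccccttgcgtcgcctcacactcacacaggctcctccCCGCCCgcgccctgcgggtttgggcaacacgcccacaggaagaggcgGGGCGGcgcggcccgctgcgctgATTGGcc
Ftl1: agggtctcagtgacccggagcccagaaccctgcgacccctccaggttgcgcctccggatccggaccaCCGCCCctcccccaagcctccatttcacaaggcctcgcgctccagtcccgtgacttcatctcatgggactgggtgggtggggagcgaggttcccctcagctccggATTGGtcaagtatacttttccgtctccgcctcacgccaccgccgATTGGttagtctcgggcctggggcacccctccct
The Fth1 window held 1 CCAAT and 3 GGGCGG matches, and the Ftl1 window 2 and 1. Of 32851 windows of the same length 33.8% held CCAAT and 32.7% held GGGCGG. TGACNNNGC, the core of the antioxidant response element, was in neither window and in 10.2% of all. The same search found 0 matches for Srxn1 and Slc7a11, from the list with Nrf2 targets described below. For Txnrd1, of the same list, 1 of 3 windows held a match. Absence from a window of 250 bases does not show that a gene lacks the element. Only the letters TGACNNNGC were searched, so variant forms of the element within these windows would be missed. RefSeq lists another start of Fth1 upstream, whose window held 0 matches to the 3 motifs. Of the 9 listed genes 6 had an entry in the promoter table, and Slc40a1, Hmox1 and Slc11a2 did not. The motifs were chosen after the windows had been read.

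Iron enters through the transferrin receptor, Tfrc (chromosome 16, 32608896 to 32632794, probe set 10435075). It read 5.93, 5.33 and 5.99 in KO, 5.58, 5.90 and 5.78 in R47H and 6.23, 6.0 and 6.06 in CV. All CV mice lay above all KO and R47H mice, the lowest CV mouse barely above the highest KO mouse. KO mouse 2 was the lowest of all, and the KO and R47H mice overlapped. CV minus KO was 0.35 ± 0.17 (interval -0.04 to 0.74, limma adjusted p = 0.434), R47H minus KO 0.01 ± 0.17 (interval -0.38 to 0.40) and R47H minus CV -0.34 ± 0.17 (interval -0.73 to 0.05, limma adjusted p = 0.477). Tfrc was the lowest of the 8 genes on its array scale, above 18.2% of tested genes, and had the widest spread between mice. Adjusted for the neutrophil score, CV minus KO of Tfrc was 0.07 (limma adjusted p = 1), and adjusted for the microglia score it was 1.22 ± 0.40 (limma adjusted p = 0.311). Without KO mouse 2 it was 0.13 (limma adjusted p = 0.748).

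Slc11a2 encodes DMT1, which moves iron from the endosome into the cytosol (chromosome 15, 100387898 to 100424209, probe set 10432573). It read 7.37, 7.41 and 7.39 in KO, 7.04, 7.41 and 7.52 in R47H and 7.50, 7.44 and 7.51 in CV. The CV mice lay above the KO mice by a narrow margin, and R47H mouse 1 was the lowest of the 9. The differences were 0.10 ± 0.10 for CV minus KO, -0.07 ± 0.10 for R47H minus KO and -0.16 ± 0.10 for R47H minus CV, with limma adjusted p of 0.736, 0.972 and 0.575. With 1 mouse left out R47H minus CV of Slc11a2 ran from -0.25 to -0.02, nearest to 0 without R47H mouse 1.

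Hmox1, heme oxygenase 1, opens the heme ring and frees its iron, and is a common marker of oxidative stress. It lies on chromosome 8 from 75093618 to 75100593 (probe set 10572897) and read 10.19, 10.01 and 10.08 in KO, 9.97, 10.08 and 10.08 in R47H and 10.08, 10.14 and 9.93 in CV. The 3 groups overlapped throughout. CV minus KO was -0.04 ± 0.08 (interval -0.23 to 0.15), R47H minus KO -0.05 ± 0.08 (interval -0.24 to 0.14) and R47H minus CV -0.01 ± 0.08 (interval -0.20 to 0.18), which turned to 0.02 with median centring.

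Aco1 and Ireb2 encode the iron regulatory proteins. Aco1 (chromosome 4, 40143265 to 40199009, probe set 10503966), which doubles as the cytosolic aconitase, read 7.18, 7.28 and 6.94 in KO, 7.08, 7.29 and 7.37 in R47H and 7.22, 7.19 and 7.22 in CV. Its groups overlapped in every comparison. Ireb2 (chromosome 9, 54862658 to 54912534, probe set 10585444) read 7.22, 7.11 and 7.17 in KO, 7.12, 7.07 and 7.11 in R47H and 7.12, 7.12 and 7.24 in CV. The R47H mice lay below the CV mice by a very narrow margin. For Aco1 CV minus KO was 0.08 ± 0.10 and R47H minus KO 0.12 ± 0.10. For Ireb2 CV minus KO was -0.01 ± 0.07 and R47H minus KO -0.07 ± 0.07. No comparison of either gene had a limma adjusted p below 0.773.

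Counted together, the CV and KO mice did not overlap for 5 of the 8 genes, where 14% of all tested genes did not. Fth1, Ftl1, Tfrc and Slc11a2 lay higher in CV (5.9% of all genes did) and Slc40a1 lower (8.05%). R47H and KO mice did not overlap for 1, Fth1, which was higher in R47H (7.11% of all genes, 3.84% in this direction). R47H and CV mice did not overlap for 3 (14.9% of all genes): Slc40a1 was higher in R47H (8.74%), and Tfrc and Ireb2 were lower (6.17%). The median difference of the 8 genes was 0.08 in CV minus KO against -0.02 over all tested genes, 0.02 against -0.0011 in R47H minus KO, and -0.03 against 0.01 in R47H minus CV.

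**Figure D3:**
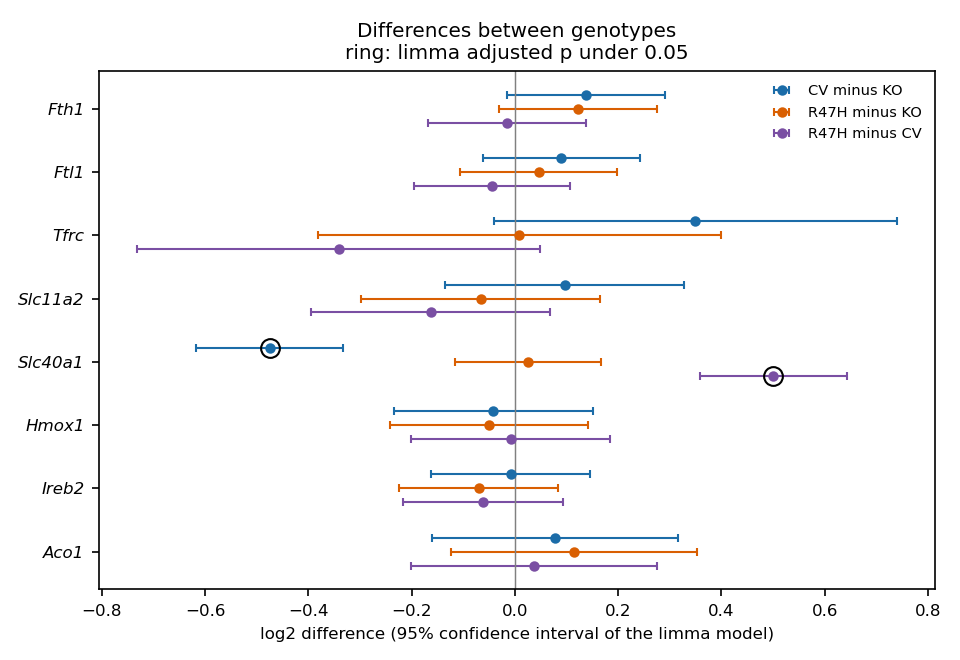
Log2 differences of the 8 genes in the 3 comparisons of genotypes, with the 95% confidence interval of the limma model; rings mark an adjusted p under 0.05. Slc40a1 is ringed in CV minus KO (-0.48) and R47H minus CV (0.50), and the intervals of all other genes include 0.

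Exactly equal values recurred between mice: 5 of the 8 genes, and 52.5% of tested genes, had a value shared by at least 2 mice. Hmox1 read the same in 4 mice, and Slc40a1 in KO mouse 1 and R47H mouse 1. The ties are in the deposited values, and their part in the spread within groups was not tested.

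Other genes of iron, heme and iron-sulfur metabolism numbered 67 in 8 lists by role, of which 62 had a probe set and 48 were tested. In CV minus KO 0 were called by limma (1.21% of all genes) and 17 had an unadjusted p under 0.05 (13.2% of all genes), with 24 positive and 24 negative differences (median -0.02). In R47H minus KO 0 were called by limma (0.0834% of all genes) and 3 had an unadjusted p under 0.05 (5.68%), again with 24 positive and 24 negative (median -0.01). In R47H minus CV 1 was called higher and 1 lower by limma (0.797% of all genes were called) and 14 had an unadjusted p under 0.05 (12.4%), with 20 positive and 28 negative (median -0.02). The CV and KO mice did not overlap for 15 of the 48 (14% of all genes), R47H and KO mice for 7 (7.11%) and R47H and CV mice for 10 (14.9%).

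The gene called higher in R47H than in CV was Cd163, the macrophage receptor for haemoglobin bound to haptoglobin. It read 6.49 in all 3 KO mice, 6.78, 6.64 and 6.64 in R47H mice 1, 2 and 3, and 6.21, 6.22 and 5.96 in CV mice 1, 2 and 3. The 3 groups did not overlap, R47H highest and CV lowest. R47H minus CV was 0.56 ± 0.08 (limma adjusted p = 0.0235), CV minus KO -0.37 (adjusted p = 0.0808) and R47H minus KO 0.19 (adjusted p = 0.863). The KO value was the same to all digits in the 3 mice, so the SD of that group is 0 and is no measure of its spread. The call was lost without any 1 of the R47H mice and without CV mouse 1 or 3 (adjusted p from 0.0729 to 0.152). It was also lost with the compared groups alone (adjusted p = 0.0566), with every probe set on its own (0.0702) and with each of the 6 marker scores as a covariate (0.309 to 1), and was kept in 10 of 23 alternatives. Cd163 is itself one of the 8 border-associated macrophage markers, whose means are given above. The border score therefore contained Cd163, and the loss of its call with that score cannot be read as a result.

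The gene called lower in R47H than in CV was Alas1, the first enzyme of heme synthesis. It read 8.45, 8.29 and 8.36 in KO, 8.21, 8.25 and 8.30 in R47H and 8.66, 8.69 and 8.61 in CV. The CV mice lay above all others, and the KO and R47H mice overlapped. R47H minus CV was -0.39 ± 0.07 (limma adjusted p = 0.0456) and CV minus KO 0.28 (adjusted p = 0.113). The call lies close to the threshold and was lost without any 1 of the R47H or CV mice (adjusted p from 0.134 to 0.217), without KO mouse 1 or 3, and with several other settings, and was kept in 4 of 24 alternatives.

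Of the remaining heme genes Urod, a later enzyme of heme synthesis, stood at -0.27 in CV minus KO (limma adjusted p = 0.212). Slc48a1, which carries heme out of lysosomes, stood at 0.29 in R47H minus KO (adjusted p = 0.37), and Hmox2, the constitutive heme oxygenase, at 0.17 (adjusted p = 0.907). Among the uptake genes Slc46a1, a folate and heme carrier, stood at -0.34 in CV minus KO (adjusted p = 0.335), and Mcoln1, a lysosomal cation channel, at -0.16 in R47H minus KO.

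Among the genes of iron-sulfur clusters Iscu, the scaffold on which they are built, stood at -0.49 in CV minus KO and missed the threshold (limma adjusted p = 0.0504). It read 9.80, 9.48 and 9.28 in KO, 9.61, 9.29 and 9.37 in R47H and 9.07, 9.03 and 9.0 in CV. The CV mice lay below all others, and KO mouse 1 was the highest. Nfs1, which supplies the sulfur, stood at -0.36 (adjusted p = 0.306), and Isca1, an assembly factor, at -0.12 in R47H minus KO. Of the 8 tested genes of this list 3 were positive and 5 negative in CV minus KO, and 2 and 6 in R47H minus KO. Over all tested genes 45% and 49.6% were positive in these comparisons.

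Among the genes of lipid peroxidation and the targets of the factor Nrf2 Srxn1, a sulfiredoxin and such a target, stood at 0.41 in CV minus KO (limma adjusted p = 0.0515). It read 6.68, 6.54 and 6.66 in KO, 6.75, 6.75 and 6.75 in R47H and 7.15, 6.88 and 7.10 in CV, with no overlap between any of the groups. Slc7a11, the cystine importer, stood at 0.50 (adjusted p = 0.0872), and its CV and KO mice overlapped. Of the 7 tested genes of this list 4 were positive and 3 negative in CV minus KO (median 0.006). Over all tested genes 45% were positive. Gclc, which makes the precursor of glutathione, stood at -0.14 in CV minus KO and -0.19 in R47H minus KO. Acsl4, which loads membranes with polyunsaturated fatty acids, stood at 0.006 and -0.14 in the same comparisons. Hmox1, another target of Nrf2, was described above, and Nfe2l2, which encodes Nrf2, stood at 0.11 in CV minus KO and -0.08 in R47H minus KO.

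Of the storage and export lists Ncoa4, which delivers ferritin for breakdown, stood at -0.17 in CV minus KO and -0.13 in R47H minus KO. Pcbp2, a chaperone of iron, stood at 0.12 and 0.09 in the same comparisons. Cp, the ferroxidase ceruloplasmin that works with ferroportin, stood at 0.28 and 0.26 (limma adjusted p = 0.122 and 0.451). Cp read 5.85, 5.94 and 5.92 in KO, 6.22, 6.18 and 6.08 in R47H and 6.27, 6.16 and 6.13 in CV. All KO mice lay below all others, and these comparisons share the KO mice. Hfe, which senses transferrin-bound iron, stood at -0.26 and -0.16. Of the sensing list Hif1a, the hypoxia factor, stood at -0.24 in CV minus KO (adjusted p = 0.208), Fbxl5, which marks Ireb2 protein for decay, at 0.13, and Bach1, a repressor bound by heme, at -0.06 in R47H minus KO.

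The widest differences of the 48 belonged to Lcn2, which binds bacterial siderophores, and Ltf, lactoferrin, both granule proteins of neutrophils. Lcn2 read 5.21, 5.12 and 10.04 in KO, 5.68, 6.80 and 7.76 in R47H and 8.76, 9.98 and 9.58 in CV. Ltf read 5.07, 5.31 and 8.38 in KO, 5.64, 5.96 and 6.39 in R47H and 7.14, 8.48 and 7.99 in CV. KO mouse 3 was high in both, as it was in the neutrophil marker score (1.63 against -2.07 and -1.50 in KO mice 1 and 2). CV minus KO was 2.65 for Lcn2 and 1.62 for Ltf, not called (limma adjusted p = 0.302 and 0.33). Slc22a17, the receptor for Lcn2, stood at -0.07 in R47H minus KO.

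**Figure D4:**
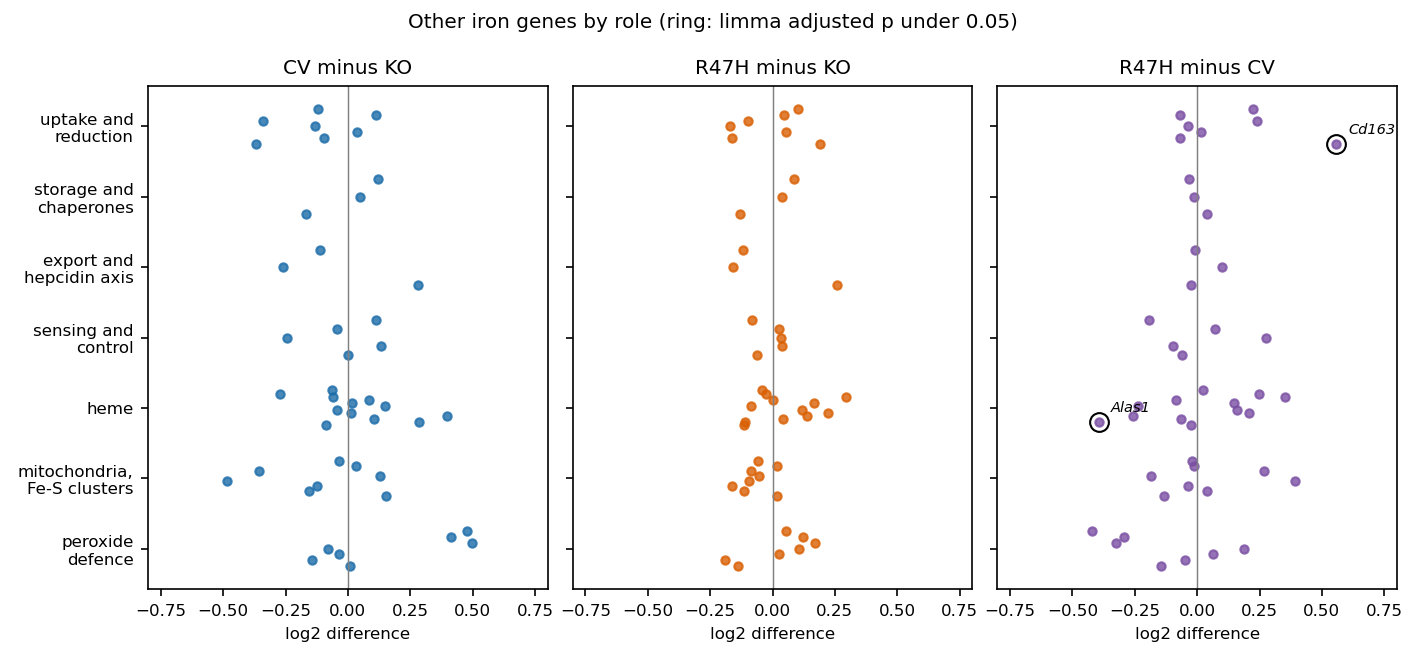
Log2 differences of the other iron genes in 7 of the 8 role lists, 1 point per gene; rings mark a limma adjusted p under 0.05. Cd163 (0.56) and Alas1 (-0.39) are ringed in R47H minus CV and no gene is ringed in the other panels; the list with Lcn2 and Ltf is left out because its differences would set the scale.

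For each of the 8 genes the pair of tested genes with the most similar profile over the 9 arrays was found by Pearson correlation, as a description. For Slc40a1 these were Abi3 (r = 0.944) and Ccdc43 (r = 0.937), which stood at -0.21 and -0.31 in CV minus KO. For Fth1 they were Osbpl8 (r = 0.970) and the peroxiredoxin Prdx1 (r = 0.959), and for Ftl1 Npm1 (r = 0.959) and Rpl24 (r = 0.958). For Tfrc they were Nmt2 (r = 0.973) and Nop16 (r = 0.971), for Slc11a2 Oaz2 and Snai1 (both r = 0.942), and for Hmox1 Notch2 (r = 0.966) and F11r (r = 0.938). For Ireb2 they were Clip1 (r = 0.980) and Crem (r = 0.946), and for Aco1 Tent5b (r = 0.923) and Wdr70 (r = 0.912). Each pair is the top among 10795 tested genes over 9 arrays, except that 1 predicted gene was passed over for Ftl1. Between the members Slc40a1 ran against Ftl1 (r = -0.645) and Tfrc (r = -0.621).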

How the data were processed

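The table deposited by the authors holds log2 values, 1 for each of 35556 probe sets in each mouse, from 1.31 to 13.9, and the log2 scale was read from this range. How the authors corrected background, normalized and summarised probes is not stated in the labels. Per the labels' protocols, cRNA was made from 2 ng of total RNA. The number of arrays, 3 per genotype, limits the precision (median residual SD 0.12). The probe annotation gave 1 gene symbol to 21789 probe sets, several to 1621 and no symbol to 12146, and 21698 matched RefSeq (GRCm38.p6), the source of positions and sequences, by Entrez identifier.

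Genes whose mean reached 5.31, the median of all probe sets, entered a limma model (version 3.58.1, R 4.3.3) with a mean per genotype and a term for sex (5 residual and 3.73 prior degrees of freedom), two-sided. The model was tested on simulated data with changes set into CV, 50 genes of each size. In CV minus KO it called 16% of changes of 0.3 log2 units, 56% of 0.5 and 98% of 1. Small differences are thus often missed. Alternatives were other filters, models and scalings, marker scores as covariates, and each mouse left out. The members, lists and tests were chosen with earlier results of these data known. The text names the 8 genes, called iron genes, the 2 smallest p-values of each role list in CV minus KO and in R47H minus KO, and the 2 genes most correlated with each member.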

Additional observations from a re-analysis of the deposited data

How the results depend on the processing

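Over 24 alternatives Slc40a1 kept its direction in CV minus KO (-0.50 to -0.45) and R47H minus CV (0.42 to 0.53), and was called in 16 and 12 of them. None of the other 7 genes was called by limma under any alternative, between genotypes, in the F-test or between the sexes. These are 807 results, counted per gene, comparison and alternative, and all draw on the same mice. Of all tested genes the model called 131 in CV minus KO, 86 in R47H minus CV, 9 in R47H minus KO, 142 with any genotype difference and 7 between the sexes. With the model without sex the limma count was 77 for CV minus KO, 3 for R47H minus KO, 85 for any genotype difference. With compared groups only the limma count was 54 for CV minus KO, 1 for R47H minus KO. With every probe set on its own the limma count was 78 for CV minus KO, 3 for R47H minus KO, 25 for R47H minus CV, 49 for any genotype difference, 4 for female minus male. With the neutrophil score covariate the limma count was 20 for CV minus KO, 16 for R47H minus KO, 8 for R47H minus CV, 35 for any genotype difference, 3 for female minus male. With the oligodendrocyte score covariate the limma count was 60 for CV minus KO, 0 for R47H minus KO, 0 for R47H minus CV, 54 for any genotype difference, 3 for female minus male. With the astrocyte score covariate the limma count was 16 for CV minus KO, 0 for R47H minus KO, 0 for R47H minus CV, 51 for any genotype difference, 4 for female minus male. With the monocyte score covariate the limma count was 26 for CV minus KO, 4 for R47H minus CV, 30 for any genotype difference, 3 for female minus male. With the border score covariate the limma count was 15 for CV minus KO, 0 for R47H minus KO, 0 for R47H minus CV, 17 for any genotype difference. With the microglia score covariate the limma count was 12 for CV minus KO, 1 for R47H minus KO, 25 for R47H minus CV, 36 for any genotype difference, 3 for female minus male. Where a count was 0, the genes with an unadjusted p under 0.05 numbered 426, 601 and 649 for R47H minus KO and 371, 505 and 434 for R47H minus CV with the oligodendrocyte, astrocyte and border scores. With trend and robust options the limma count was 15 for R47H minus KO. With no filter on low values the limma count was 48 for R47H minus CV. With the stricter filter on low values the limma count was 9 for R47H minus CV, 69 for any genotype difference, 3 for female minus male. Members called for CV minus KO fell from 1 to 0 in limma under 8 settings (model without sex, compared groups only, neutrophil score covariate, oligodendrocyte score covariate, astrocyte score covariate, monocyte score covariate, border score covariate, microglia score covariate). Members called for R47H minus CV fell from 1 to 0 in limma under 7 settings (model without sex, neutrophil score covariate, oligodendrocyte score covariate, astrocyte score covariate, monocyte score covariate, border score covariate, microglia score covariate). Members called for any genotype difference fell from 1 to 0 in limma under 7 settings (model without sex, neutrophil score covariate, oligodendrocyte score covariate, astrocyte score covariate, monocyte score covariate, border score covariate, microglia score covariate). With each mouse left out in turn the counts of genes ran from 59 to 172 for CV minus KO, from 9 to 132 for R47H minus CV, from 0 to 7 for R47H minus KO, from 35 to 163 for any genotype difference, from 3 to 5 for female minus male, and of members from 0 to 1 for R47H minus CV and any genotype difference.

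The remaining changes of direction were in differences that were never called, and their cause was not tested. With the border score covariate Hmox1 CV minus KO was 0.038, Fth1 R47H minus CV was 0.017, Ftl1 R47H minus CV was 0.050, Aco1 R47H minus CV was -0.24. With the microglia score covariate Hmox1 CV minus KO was 0.15, Slc11a2 CV minus KO was -0.060, Aco1 CV minus KO was -0.45, Hmox1 R47H minus KO was 0.0088, Aco1 R47H minus KO was -0.045. With the oligodendrocyte score covariate Slc40a1 R47H minus KO was -0.0020, Aco1 R47H minus KO was -0.21, Ftl1 R47H minus CV was 0.062, Tfrc R47H minus CV was 0.34, Aco1 R47H minus CV was -0.37, Hmox1 female minus male was -0.014. With the astrocyte score covariate Slc40a1 R47H minus KO was -0.031, Aco1 R47H minus KO was -0.37, Fth1 R47H minus CV was 0.074, Ftl1 R47H minus CV was 0.15, Tfrc R47H minus CV was 0.034, Aco1 R47H minus CV was -0.69. With quantile normalization Fth1 R47H minus CV was 0.033. With median centring Fth1 R47H minus CV was 0.017, Hmox1 R47H minus CV was 0.024. With the neutrophil score covariate Fth1 R47H minus CV was 0.024, Ftl1 R47H minus CV was 0.027, Hmox1 R47H minus CV was 0.0029, Aco1 R47H minus CV was -0.18. With the monocyte score covariate Fth1 R47H minus CV was 0.036, Ftl1 R47H minus CV was 0.043, Hmox1 R47H minus CV was 0.045, Aco1 R47H minus CV was -0.24. Leaving out 1 mouse gave ranges across 0: Hmox1 CV minus KO -0.096 to 0.021, Ireb2 CV minus KO -0.053 to 0.030, Aco1 CV minus KO -0.037 to 0.15, Tfrc R47H minus KO -0.21 to 0.18, Slc40a1 R47H minus KO -0.0055 to 0.044, Hmox1 R47H minus KO -0.092 to 0.021, Slc11a2 R47H minus KO -0.15 to 0.076, Fth1 R47H minus CV -0.053 to 0.0042, Hmox1 R47H minus CV -0.071 to 0.063, Aco1 R47H minus CV -0.018 to 0.13, Fth1 female minus male -0.0012 to 0.075, Tfrc female minus male -0.039 to 0.24, Hmox1 female minus male -0.036 to 0.095, Ireb2 female minus male -0.011 to 0.058, Aco1 female minus male -0.12 to 0.043.

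Same-numbered mice of different genotypes had correlated deviations in 7 of 9 pairs above 0.1 (r from -0.0401 to 0.362). Of 9 mice 5 correlated best with their own number. The highest r were between the females, all of them mouse 1 (0.319 to 0.362). Between males of different genotypes r ran from -0.0401 to 0.213 for the same number and from -0.0759 to 0.214 for different numbers. The reported model did not take the numbers as a pairing, and these values do not settle whether they are one. With the replicate block in place of sex 136, 83 and 11 genes were called in CV minus KO, R47H minus CV and R47H minus KO, and Slc40a1 had a limma adjusted p of 0.0169 and 0.0241 in the first pair of comparisons. Marker scores were added as alternatives, 4 of them (astrocyte, monocyte, border, microglia) after the data were seen. Signal over background is unknown for these values.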
